A study of Homo sapiens with 60 samples.

Results

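The interaction described here asks whether the effect of 1000 nM BAY2506856 on a gene was larger or smaller after 6 h than after 3 h of treatment. It is the difference between treated and DMSO cells at 6 h minus the same difference at 3 h, and it rests on 18 of the 60 libraries of the series: 3 treated and 6 DMSO libraries at each time. The cells were MDA-MB-231, an established human breast cancer line that lacks estrogen receptor, and RNA was poly(A) selected and sequenced. Treated cells received 1000 nM of BAY2506856 for 3 h or 6 h, and control cells received DMSO, the solvent, for the same times. The remaining libraries of the series hold 100 and 300 nM at these times and all doses at 1 h and 24 h. These treatment times come from the labels, whereas the series' design text names only a harvest at 24 h. No label says that replicates were separate cultures, so each p-value reflects only the spread among libraries of a group, which may be technical. That spread was estimated over the groups of all 60 libraries, not over the 18 alone. What the compound binds is not stated in the labels.

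Some of the genes described below belong to a program run by YAP1 and TAZ, whose activity was not measured here. These 2 related coactivators enter the nucleus, bind TEAD transcription factors on DNA and switch on genes for matrix proteins, secreted ligands and growth. The Hippo kinases hold them in the cytoplasm, and a contractile actin skeleton favours their entry into the nucleus. In MDA-MB-231 cells this program is known to be active.

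The 18 libraries held 1.45 to 48.6 M reads, recovered from the deposited values. The lowest depth was that of 1000 nM 3 h replicate 2. The MDA-MB-231 markers VIM (431 to 642 FPKM), CD44, AXL and CAV1 were high in every library. ESR1 was at 0 in all 18, as were the leukocyte marker CD3E and the fibroblast marker DCN. Other markers of these kinds were above 0 in every library. The luminal genes ERBB2 and GATA3 were at 4.755 to 10.39 and 2.99 to 5.577 FPKM. The leukocyte gene CD14 was at 0.7129 to 2.825 FPKM and the fibroblast gene COL1A1 at 0.1369 to 1.403 FPKM. Summed over each list, leukocyte and fibroblast markers reached 3.071 and 2.879 FPKM, against at least 1400 FPKM for MDA-MB-231 markers. FPKM counts fragments per kilobase of transcript, scaled to library depth. Libraries of 3 types could be told apart by a set of pseudogenes and by MT-ND6, a mitochondrial message. The second type comprised 1000 nM 3 h replicate 2, DMSO 3 h replicate 6 and DMSO 6 h replicate 5. The third type comprised DMSO 3 h replicates 1, 2 and 3, which held up to 69.9 FPKM of MT-ND6 against 0.848 to 5.71 FPKM in the first type. Libraries of the first type numbered 2 at 1000 nM 3 h, 2 at DMSO 3 h, 3 at 1000 nM 6 h and 5 at DMSO 6 h. Values within the first type, or with model terms for the other types, are therefore given beside most values over all libraries.

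Between 3 h and 6 h the effect of 1000 nM BAY2506856 grew mostly downward. Of 15866 genes tested with limma on log2(FPKM + 0.5), 36 had an interaction with a Benjamini-Hochberg adjusted p under 0.05 (0.227%), 30 of them lower (0.189%) and 6 higher (0.0378%). The median interaction over all genes tested was 0.02 on the log2 scale. The lowest values were those of ANKRD1, CTGF, OXTR, DKK1, CYR61 and EDN1, from -1.28 to -0.999, and the highest were those of RHOB and BMF, at 1.41 and 0.89. Only 6 of the 36 genes had an interaction of at least 2-fold, which compares the effect at 6 h with that at 3 h. Of the 15866 genes, 1007 had an unadjusted p under 0.05, where chance gives about 1 in 20. Within the first library type 213 genes were called (1.34%), 168 lower (1.06%) and 45 higher, and with type terms 101 were called (0.637%), 82 lower (0.517%) and 19 higher. Of the 36 genes, 34 were called in each of these fits (all but GAB2 and KLF7 in the first, and all but ABL2 and GAB2 in the other), and each of the 36 kept its direction.

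For each of the 36 genes the level moved more between the times in treated cells than in DMSO cells. The interaction is the difference of these changes, so that count follows in part from how the genes were picked. For the 30 lower genes the treated level fell by 0.30 to 1.27 from 3 h to 6 h on the log2 scale, with a median of -0.70, while the DMSO level moved by -0.25 to 0.31, with a median of -0.05. For the 6 higher genes the treated level rose by 0.43 to 1.64 and the DMSO level moved by -0.22 to 0.23. CYR61 was the gene among the 36 whose DMSO level passed the threshold by itself (0.31 ± 0.06 SE, adjusted p = 0.0024), and it rose in DMSO while it fell in treated cells. Between 6 h and 3 h 2.9% of all genes passed in treated cells (1.27% higher and 1.63% lower) and 0.504% in DMSO cells (0.309% higher and 0.195% lower).

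**Figure D1:**
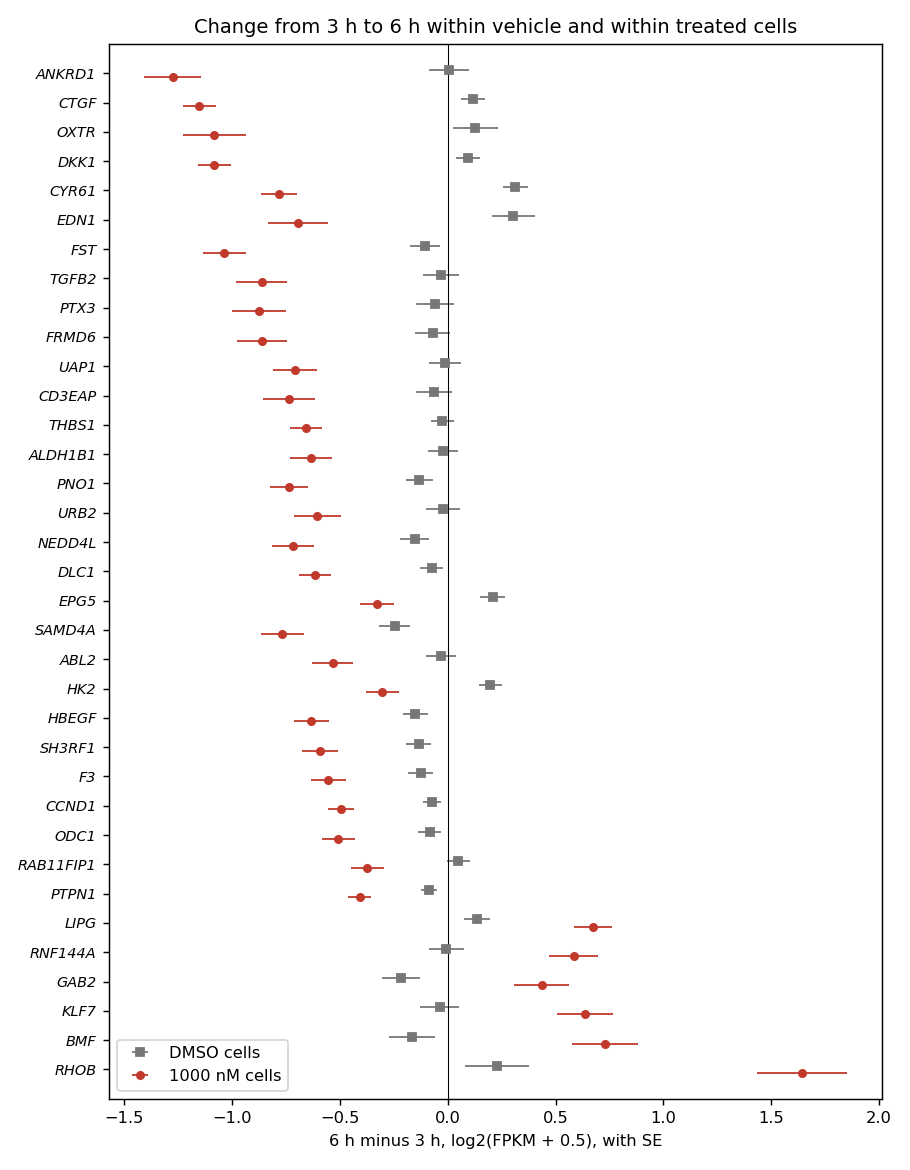
Change from 3 h to 6 h, in log2(FPKM + 0.5), of 35 of the 36 genes within DMSO cells (grey squares) and within cells given 1000 nM (red circles), with the SE of the fit. DMSO changes lie between -0.25 and 0.31, and treated changes reach -1.27 for ANKRD1 and 1.64 for RHOB.

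The genes also differed in where they stood at 3 h. Of the 36 genes, 23 had a 3 h effect smaller than 0.2 in size, 19 of them among the 30 lower genes. At 3 h the treated libraries lay below all DMSO libraries for 11 genes, above them for 1 gene (RHOB) and overlapped them for 24 genes. At 6 h they lay below for all 30 lower genes and above for all 6 higher genes. Over all genes tested, 0.132% were called at 3 h (0.0252% higher and 0.107% lower) and 2.01% at 6 h (0.706% higher and 1.3% lower), and both effects share their libraries with the interaction. The median effect of the 30 lower genes was -0.10 at 3 h and -0.80 at 6 h. In bulk RNA, fewer expressing cells and less RNA per cell cannot be told apart.

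**Figure D2:**
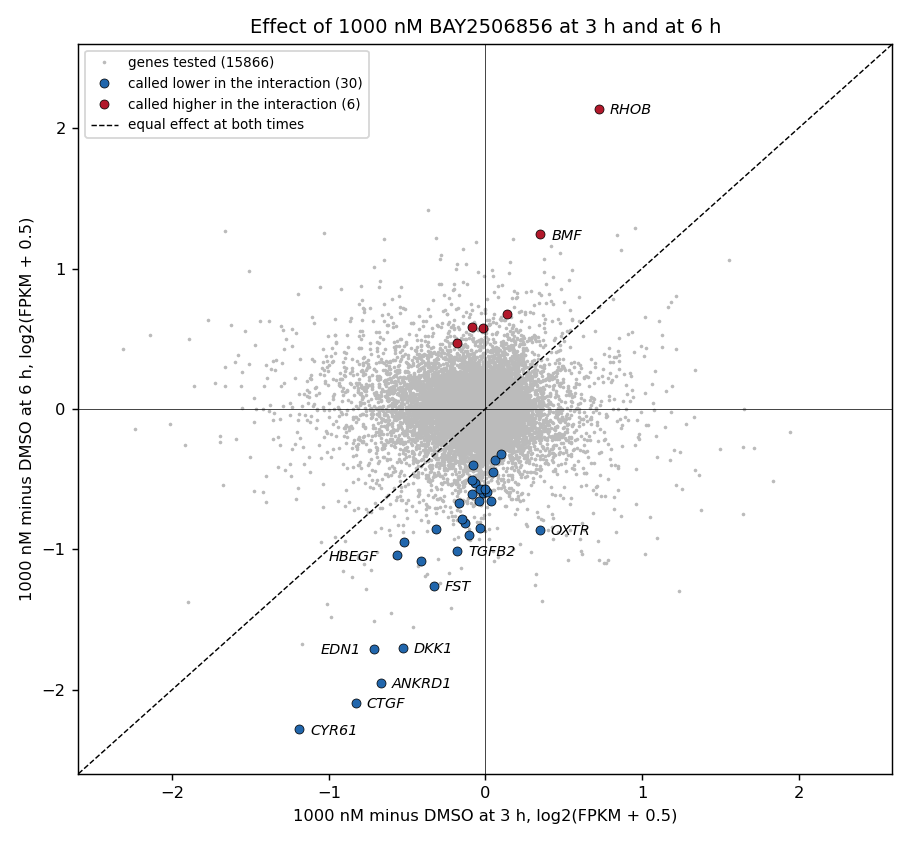
Effect of 1000 nM against DMSO at 3 h (x axis) and at 6 h (y axis), both in log2(FPKM + 0.5), for the 15866 genes tested. Genes on the dashed line had equal effects at both times; the 30 genes called lower lie below it and the 6 called higher lie above it, with CYR61 at -1.19 and -2.28 and RHOB at 0.73 and 2.14.

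Of the YAP1/TAZ targets, CTGF, CYR61, ANKRD1, F3 and TGFB2 had a called interaction. CTGF (CCN2) encodes a secreted matricellular protein and is a standard readout of YAP1/TAZ. Its level was 58.5, 58.9 and 56.0 FPKM in the treated libraries at 3 h and 24.9, 27.1 and 25.3 FPKM at 6 h. In DMSO it was 100.4, 102.2 and 106.5 FPKM (lowest, median and highest of 6) at 3 h and 102.6, 108.0 and 134.2 FPKM at 6 h. The groups were separate at both times, and treated CTGF was 1.77-fold below DMSO at 3 h and 4.27-fold below it at 6 h. The interaction was -1.27 ± 0.09 (SE, adjusted p = 1.69e-13 with limma), and -1.23 within the first type (adjusted p = 1.42e-08).

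CYR61 (CCN1), the close relative of CTGF, had the deepest effect at either time. Treated libraries held 99.5, 95.6 and 98.7 FPKM at 3 h and 56.5, 58.8 and 55.1 FPKM at 6 h, against DMSO medians of 223.9 (210.7 to 237.0) and 269.4 FPKM (261.4 to 315.4). The gap to DMSO widened from 2.28-fold to 4.87-fold, with an interaction of -1.09 ± 0.10 (adjusted p = 2.11e-10) and -1.19 within the first type (adjusted p = 5.48e-09). ANKRD1, which encodes an ankyrin repeat protein found in nucleus and sarcomere, was at 62.6, 76.8 and 63.8 FPKM at 3 h and at 27.5, 28.5 and 26.7 FPKM at 6 h. Its DMSO medians were 106.9 (98.0 to 124.1) and 106.1 FPKM (89.0 to 141.4). The interaction was -1.28 ± 0.16 (adjusted p = 1.07e-06; -1.21 and 4.18e-09 within the first type), and the DMSO level did not move between the times beyond its error (0.01 ± 0.09).

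TGFB2, the growth factor TGF-beta 2, differed from these 3 genes in that its treated and DMSO libraries overlapped at 3 h. Treated values were 19.6, 24.0 and 19.2 FPKM, against DMSO values of 22.4 to 25.7 FPKM. At 6 h they were 12.2, 11.6 and 10.0 FPKM, all below the DMSO range of 20.7 to 28.6 FPKM, and the interaction was -0.83 ± 0.14 (adjusted p = 0.000844; -0.71 and 0.000149 within the first type). F3, which encodes tissue factor, the starter of blood coagulation, was called with a smaller value of -0.43 ± 0.10 (adjusted p = 0.0341; -0.48 and 5.95e-05 within the first type). Its effect was already -0.52 at 3 h. The call for F3 held in 9 of 18 fits that each left out 1 library (adjusted p up to 0.166).

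**Figure D3:**
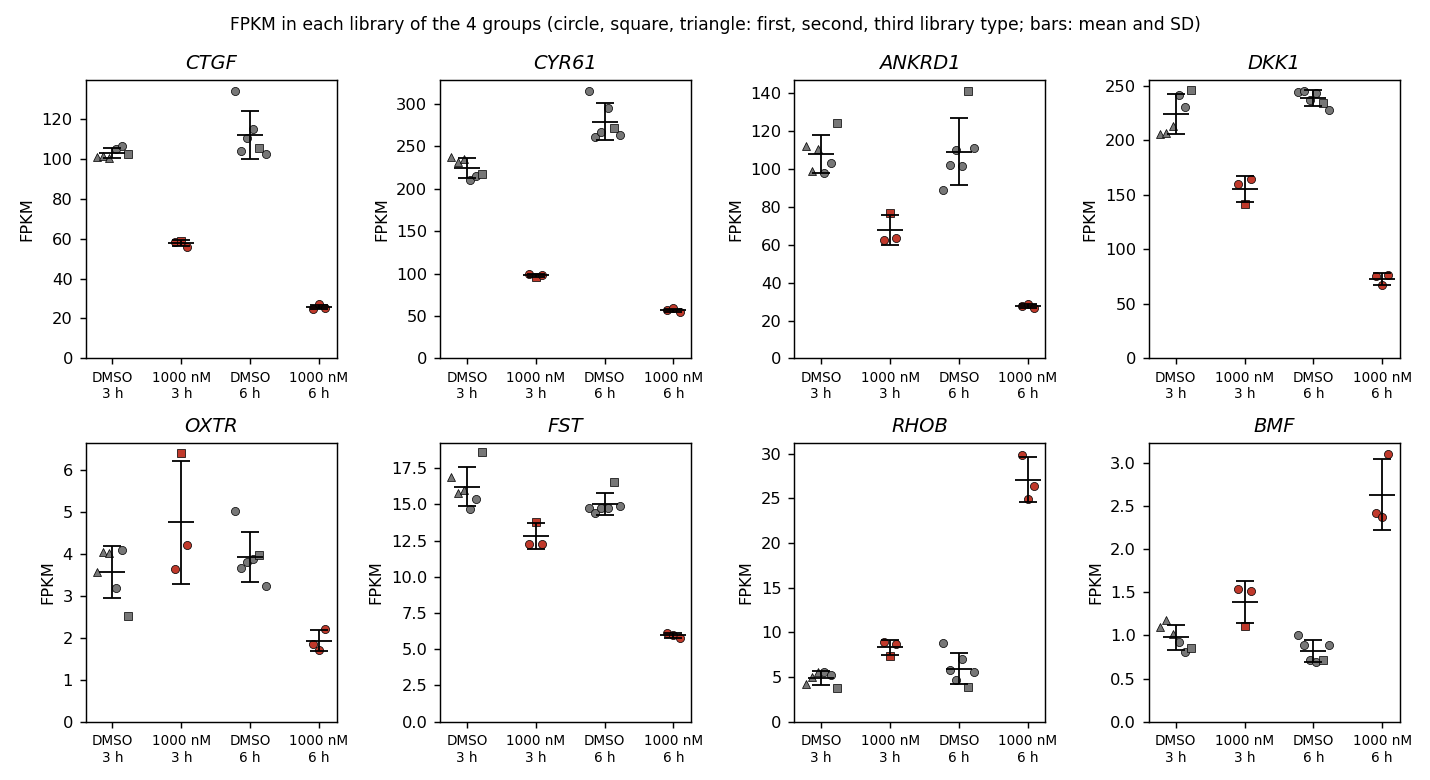
FPKM of 8 genes in each library (circles, squares and triangles are the first, the second and the third library type; grey is DMSO, red is 1000 nM; bars are mean and SD, n = 6 for DMSO and 3 for treated cells). The treated libraries at 6 h stand apart from DMSO in all 8 panels, while at 3 h those of OXTR and BMF lie among or near the DMSO libraries.

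Promoters of the called genes were read from RefSeq (GRCh38.p14), which held a window of 250 bases before and 50 bases after the start for 29 of the 36 genes. The files use hg19, so these windows were matched by gene symbol only. The letters GGAATG, the core motif of TEAD factors, were searched on both strands. They occurred in the windows of 6 of 23 genes called lower (26.1%) and 0 of 6 called higher, against 10.7% of 9281 windows of tested genes and 14.0% of all 27305 windows. The 6 genes were CTGF, ANKRD1, TGFB2, DKK1, THBS1 and NEDD4L. The 250 bases before the start are shown for the first 5, since the values of these genes are described in full here. They are written 5′ to 3′ along the gene's strand, with the motif in capitals (CATTCC where it lies on the other strand).
CTGF: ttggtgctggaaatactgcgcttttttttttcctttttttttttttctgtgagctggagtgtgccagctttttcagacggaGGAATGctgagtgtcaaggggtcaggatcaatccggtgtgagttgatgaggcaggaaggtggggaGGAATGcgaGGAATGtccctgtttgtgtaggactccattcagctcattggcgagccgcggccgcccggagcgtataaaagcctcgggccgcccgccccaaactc
ANKRD1: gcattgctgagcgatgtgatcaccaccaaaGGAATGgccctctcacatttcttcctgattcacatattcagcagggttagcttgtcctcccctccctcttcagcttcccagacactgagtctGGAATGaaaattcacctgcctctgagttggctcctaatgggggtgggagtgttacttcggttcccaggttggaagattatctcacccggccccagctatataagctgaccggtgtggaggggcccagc
TGFB2: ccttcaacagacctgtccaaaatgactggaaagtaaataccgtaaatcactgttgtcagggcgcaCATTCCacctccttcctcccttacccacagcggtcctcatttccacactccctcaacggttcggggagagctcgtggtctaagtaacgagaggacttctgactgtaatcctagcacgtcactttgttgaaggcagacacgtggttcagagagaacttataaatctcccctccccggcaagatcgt
DKK1: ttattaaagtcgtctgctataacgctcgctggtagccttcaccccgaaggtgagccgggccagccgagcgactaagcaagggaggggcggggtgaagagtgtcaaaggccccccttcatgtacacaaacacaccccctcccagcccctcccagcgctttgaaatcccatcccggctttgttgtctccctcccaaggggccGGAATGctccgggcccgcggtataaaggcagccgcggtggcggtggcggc
THBS1: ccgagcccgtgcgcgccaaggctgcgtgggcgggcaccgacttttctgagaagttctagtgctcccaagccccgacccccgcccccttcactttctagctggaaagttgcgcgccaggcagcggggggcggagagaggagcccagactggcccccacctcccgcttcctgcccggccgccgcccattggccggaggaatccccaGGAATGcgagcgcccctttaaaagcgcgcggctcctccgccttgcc
The windows lie at chr6:131951373-131951622 (minus strand) for CTGF, chr10:90921088-90921337 (minus) for ANKRD1, chr1:218345086-218345335 (plus) for TGFB2, chr10:52314031-52314280 (plus) for DKK1 and chr15:39580829-39581078 (plus) for THBS1. CTGF held 3 matches, whose first bases lay 169, 104 and 95 bases before the start, and ANKRD1 held 2, at 220 and 128 bases before it. DKK1, THBS1 and TGFB2 held 1 match each, at 50, 46 and 185 bases. The AP-1 motif TGANTCA, bound by FOS and JUN dimers, was in 4 of 23 lower windows (17.4%; ANKRD1, FST, ABL2 and F3), against 4.34% of tested and 7.76% of all windows. The E-box CACGTG (3 of 23, against 10.3% of tested genes) and the KLF motifs GGGTGTG or GGGCGTG (5 of 23, against 19.0%) were also found, and the FOXO motif TGTTTAC was in 0 of 23 (2.25% of tested genes). These are matches of letters, with no test, and they do not show binding.

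Of the 23 YAP1/TAZ targets tested, 5 were called lower and 0 higher, with a median interaction of -0.32 beside 0.02 for all genes, of which 0.189% were called lower. This list, like all the lists below, was chosen with earlier results of these data known. The counts and direction of a list are therefore not independent evidence. The other 18 targets missed the threshold. LATS2, a Hippo kinase that restrains YAP1, was at -0.32 (adjusted p = 0.649). AMOTL2, an angiomotin that binds YAP1, was low at both times (-1.01 at 3 h and -1.39 at 6 h), and its interaction of -0.38 ± 0.25 missed the threshold (adjusted p = 0.894). It was -0.58 with type terms (adjusted p = 0.0329) and -0.59 within the first type (adjusted p = 0.0672). With type terms 8 targets were called lower, and within the first type 10 were, beside 0.517% and 1.06% of all genes in those fits. Among 22 Hippo kinases, angiomotins and TEAD factors 0 were called, with a median of -0.05. Within the first type 2 of them were called lower, beside 1.06% of all genes.

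The ligand genes DKK1, EDN1, FST and HBEGF had called interactions of -1.18 to -0.48. Of 19 growth factors, cytokines and other ligands tested, 4 were called lower and 0 higher, with a median of -0.10 and 11 of 19 values below 0, beside 0.189% of all genes called lower. The same count of 4 was reached with type terms and within the first type, beside 0.517% and 1.06% of all genes called lower. DKK1, which encodes a secreted inhibitor of Wnt signalling, stood at 159.6, 141.4 and 164.7 FPKM in treated cells at 3 h and at 75.35, 66.9 and 76.9 FPKM at 6 h. In DMSO it was at 221.7 (206.0 to 246.5) and 240.3 FPKM (227.5 to 245.0). The groups were separate at both times, and the interaction was -1.18 ± 0.09 (adjusted p = 9.51e-13; -1.17 and 1.37e-09 within the first type).

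EDN1, the vasoconstrictor peptide endothelin-1, was at 4.05, 4.63 and 4.75 FPKM at 3 h and at 3.43, 1.99 and 2.46 FPKM at 6 h in treated cells. The DMSO level was 7.61 FPKM (7.04 to 8.25) at 3 h and 9.44 FPKM (8.14 to 11.5) at 6 h. The interaction of -0.999 ± 0.17 (adjusted p = 0.000763) thus joined a fall in treated cells of 0.69 ± 0.14 and a DMSO change of 0.30 ± 0.10 that missed the threshold (adjusted p = 0.198). FST, follistatin, which binds and blocks activins, was at 12.25, 13.8 and 12.3 FPKM at 3 h and at 6.13, 6.00 and 5.78 FPKM at 6 h, against 15.9 (14.7 to 18.6) and 14.8 FPKM (14.4 to 16.55). Its interaction was -0.93 ± 0.12 (adjusted p = 1.89e-06). HBEGF, a ligand of the EGF receptor, was lower by 0.56 at 3 h and by 1.04 at 6 h, with an interaction of -0.48 ± 0.10 (adjusted p = 0.0102). Within the first type these 3 genes were at -0.93, -0.95 and -0.55 (adjusted p = 0.0118, 7.15e-07 and 6.52e-05). CD274, the immune checkpoint ligand PD-L1, was low at both times (-0.73 and -1.15), and its interaction of -0.42 ± 0.16 missed the threshold (adjusted p = 0.532; -0.34 and 0.367 within the first type).

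OXTR, the oxytocin receptor, was level with or above DMSO at 3 h and below it at 6 h. Treated libraries held 3.63, 6.404 and 4.22 FPKM at 3 h, beside DMSO libraries at 2.52 to 4.09 FPKM. At 6 h they held 1.86, 1.72 and 2.21 FPKM, all below the DMSO range of 3.25 to 5.03 FPKM. The effect was 0.35 ± 0.13 at 3 h (adjusted p = 0.499) and -0.86 ± 0.13 at 6 h (adjusted p = 6.87e-06), and the interaction was -1.21 ± 0.18 (adjusted p = 6e-05). The highest 3 h value came from replicate 2, the shallow library of the second type. Without libraries under 2 M reads the interaction was -0.99 (adjusted p = 0.00198), and within the first type it was -0.96 (adjusted p = 0.00236). With only the 18 libraries fitted the call was lost (adjusted p = 0.0544).

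THBS1, PTX3 and FRMD6 were also called lower. THBS1, thrombospondin-1, lay below DMSO at both times and fell from 173.7 to 189.1 FPKM at 3 h to 109.9, 119.3 and 118.7 FPKM at 6 h, while DMSO stayed within 192.0 to 210.9 FPKM over both times (interaction -0.63 ± 0.09, adjusted p = 2.38e-05; -0.71 and 2.37e-06 within the first type). PTX3, a secreted pentraxin that binds matrix, was at its DMSO level at 3 h (-0.03 ± 0.11) and lower at 6 h, with an interaction of -0.82 ± 0.15 (adjusted p = 0.00221; -0.67 and 0.00747 within the first type). FRMD6, a FERM-domain protein linked to the Hippo pathway, had effects of -0.11 ± 0.10 and -0.90 ± 0.10 (interaction -0.79, adjusted p = 0.00115; -0.71 and 1.66e-07 within the first type).

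Genes of ribosome assembly and growth metabolism were among the lower genes. PNO1, which helps to assemble the small ribosomal subunit, was at 19.2, 19.9 and 19.4 FPKM in treated cells at 3 h, within the DMSO range of 17.9 to 20.8 FPKM. At 6 h it was at 11.5, 10.4 and 12.7 FPKM, below the DMSO range of 16.7 to 18.6 FPKM (interaction -0.60 ± 0.11, adjusted p = 0.00117; -0.49 and 0.00303 within the first type). URB2, another ribosome assembly factor, was at -0.58 (adjusted p = 0.0341), and CD3EAP (POLR1G), a subunit of RNA polymerase I, was at -0.67 (adjusted p = 0.0201) and lay below all DMSO libraries at 3 h already (effect -0.41). Within the first type URB2 and CD3EAP were at -0.64 and -0.79 (adjusted p = 0.00211 and 0.000584). Their calls over all libraries held in 8 and 14 of 18 fits that each left out 1 library, with adjusted p up to 0.282 and 0.107.

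Of 40 ribosome biogenesis and nucleolar genes, PNO1 alone was called lower and 0 were called higher over all libraries. The shares over all genes were 0.189% and 0.0378%. The median of the list was -0.25, with 37 of 40 values below 0, against 7340 of 15866 for all genes. At 6 h 17 of the 40 were called lower, and at 3 h 0 were, beside 1.3% and 0.107% of all genes, with list medians of -0.32 and -0.06. With type terms 8 of the 40 had a called interaction, and within the first type 9 did, all lower, beside 0.517% and 1.06% of all genes called lower in those fits. WDR3, a component of the small subunit processome, was at -0.63 over all libraries (adjusted p = 0.1), at -0.45 with type terms (adjusted p = 0.00156) and at -0.44 within the first type (adjusted p = 0.0095). RRS1, a large subunit assembly factor, was at -0.35 ± 0.31 (adjusted p = 0.931), with treated values of 8.84, 4.73 and 10.8 FPKM at 3 h that overlapped DMSO.

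ODC1, the first enzyme of polyamine synthesis, was the 1 gene called among 23 polyamine, nucleotide and one-carbon enzymes (median -0.12). Over all genes 0.189% were called lower. It was slightly above DMSO at 3 h (0.06 ± 0.07) and below it at 6 h (-0.36 ± 0.07), with an interaction of -0.42 ± 0.09 (adjusted p = 0.0265; -0.33 and 0.0158 within the first type). The call for ODC1 held in 12 of 18 fits that each left out 1 library (adjusted p up to 0.145), and it was lost without the third type (-0.31, adjusted p = 0.24). HK2, the hexokinase that opens glycolysis, was the 1 gene called among 24 glycolysis and hypoxia genes, beside the same 0.189%. Its interaction was -0.50 ± 0.09 (adjusted p = 0.00221). First-type libraries alone gave -0.60 for HK2 (adjusted p = 4.02e-06). UAP1, which makes the sugar donor UDP-N-acetylglucosamine, was at -0.70 ± 0.13 (adjusted p = 0.00145), and the mitochondrial dehydrogenase ALDH1B1 was at -0.61 ± 0.12 (adjusted p = 0.00378). Within the first type UAP1 and ALDH1B1 were at -0.53 and -0.51 (adjusted p = 0.00201 and 0.000834). The call for ALDH1B1 was lost without 1000 nM 6 h replicate 1 (adjusted p = 0.0551). CCND1, the G1 cyclin D1, fell from 135.7, 139.9 and 144.5 FPKM at 3 h to 104.5, 94.9 and 98.2 FPKM at 6 h, with DMSO medians of 148.3 and 138.9 FPKM (interaction -0.42 ± 0.07, adjusted p = 0.000862; -0.49 and 0.000586 within the first type). Of other cell cycle genes, 0 of 40 DNA replication and S phase genes and 0 of 40 mitosis and G2/M genes were called. The list medians were -0.04 and -0.02. With 0.227% of all genes called, 0 of 40 does not set these lists apart. The mitosis median became 0.06 with type terms and within the first type, with 1 member called higher in each. In those fits 0.12% and 0.284% of all genes were called higher.

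The remaining lower genes act in signalling, protein turnover and trafficking, and belong to no list. DLC1, a GTPase-activating protein, was below DMSO at both times and had an interaction of -0.54 ± 0.09 (adjusted p = 0.000754; -0.58 and 3.09e-05 within the first type). The kinase ABL2 (-0.50), the phosphatase PTPN1 (-0.32), the ubiquitin ligases NEDD4L (-0.56) and SH3RF1 (-0.46), the RNA-binding protein SAMD4A (-0.52), the autophagy factor EPG5 (-0.53) and the Rab11 effector RAB11FIP1 (-0.42) were called with adjusted p values of 0.00169 to 0.0458. For ABL2 and SAMD4A the call held in only 3 and 4 of 18 fits that each left out 1 library (adjusted p up to 0.297 and 0.235), and for SH3RF1 and RAB11FIP1 it held in 14 each (up to 0.128 and 0.163). RAB11FIP1 was also lost without libraries under 2 M reads (adjusted p = 0.0892). PTPN1 was lost without 1000 nM 6 h replicate 1 (adjusted p = 0.0519). For NEDD4L it was lost without 1000 nM 6 h replicate 1 (adjusted p = 0.0543) or 1000 nM 3 h replicate 2 (0.127).

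RHOB had the largest increase. It encodes a small GTPase of endosomes and the plasma membrane. Treated libraries held 8.97, 7.37 and 8.68 FPKM at 3 h and 29.9, 25.0 and 26.4 FPKM at 6 h. The DMSO libraries held 5.14 FPKM (3.73 to 5.54) at 3 h and 5.69 FPKM (3.87 to 8.77) at 6 h. The groups did not overlap at either time, and RHOB was 1.65-fold above DMSO at 3 h and 4.40-fold above it at 6 h. The interaction was 1.41 ± 0.26 (adjusted p = 0.0016; 1.37 and 0.000105 within the first type).

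BMF, a BH3-only protein that promotes apoptosis, was at 1.54, 1.11 and 1.51 FPKM in treated cells at 3 h and at 2.41, 2.37 and 3.11 FPKM at 6 h. The DMSO libraries stayed between 0.692 and 1.17 FPKM, so that at 3 h 1 treated library lay within the DMSO range and at 6 h none did. The interaction was 0.89 ± 0.19 (adjusted p = 0.0106; 0.65 and 0.0421 within the first type). Without 1000 nM 3 h replicate 2 it was 0.78 (adjusted p = 0.127), and without 1000 nM 6 h replicate 3 it was 0.79 (adjusted p = 0.107). BMF was the 1 gene called among 25 FOXO targets and quiescence genes, beside 0.0378% of all genes called higher. This list, of genes that rise when growth signalling falls, had a median of 0.18. TSC22D3 (GILZ), a leucine zipper protein of this list, was at 0.63 ± 0.17 (adjusted p = 0.0976), at 0.58 with type terms (adjusted p = 0.0437) and at 0.42 within the first type (adjusted p = 0.12).

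LIPG, endothelial lipase, was at 2.90, 2.36 and 2.33 FPKM at 3 h, overlapping DMSO (2.11 to 2.48), and at 4.22, 4.27 and 4.46 FPKM at 6 h, above DMSO (2.32 to 2.59). Its interaction was 0.54 ± 0.11 (adjusted p = 0.00457; 0.53 and 0.0108 within the first type), and LIPG and RHOB were the higher genes whose call held in all 18 fits that each left out 1 library. With only the 18 libraries fitted LIPG was not called (adjusted p = 0.0793). KLF7, a Krüppel-like transcription factor, was at 0.67 ± 0.16 (adjusted p = 0.0458), the scaffold protein GAB2 at 0.65 ± 0.15 (0.048) and the ubiquitin ligase RNF144A at 0.59 ± 0.14 (0.0483). These 3 calls held in 5, 6 and 2 of the 18 fits, with adjusted p up to 0.176, 0.596 and 0.296. Within the first type they were at 0.48 (adjusted p = 0.0885), 0.35 (0.292) and 0.54 (0.000149). KLF7 measured 0.726 to 0.820 FPKM at 3 h and 1.37 to 1.61 FPKM at 6 h in treated cells, against 0.603 to 1.17 FPKM in DMSO. Of 12 KLF factors it was the 1 gene called (median 0.18), beside 0.0378% of all genes called higher. KLF2, a factor known from endothelial cells under flow, was at 8.87 to 10.1 FPKM at 6 h and at 2.33 to 4.27 FPKM at 3 h in treated cells, but DMSO at 6 h spread from 1.92 to 15.0 FPKM, and its interaction of 1.04 ± 0.48 missed the threshold (adjusted p = 0.744).

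**Figure D4:**
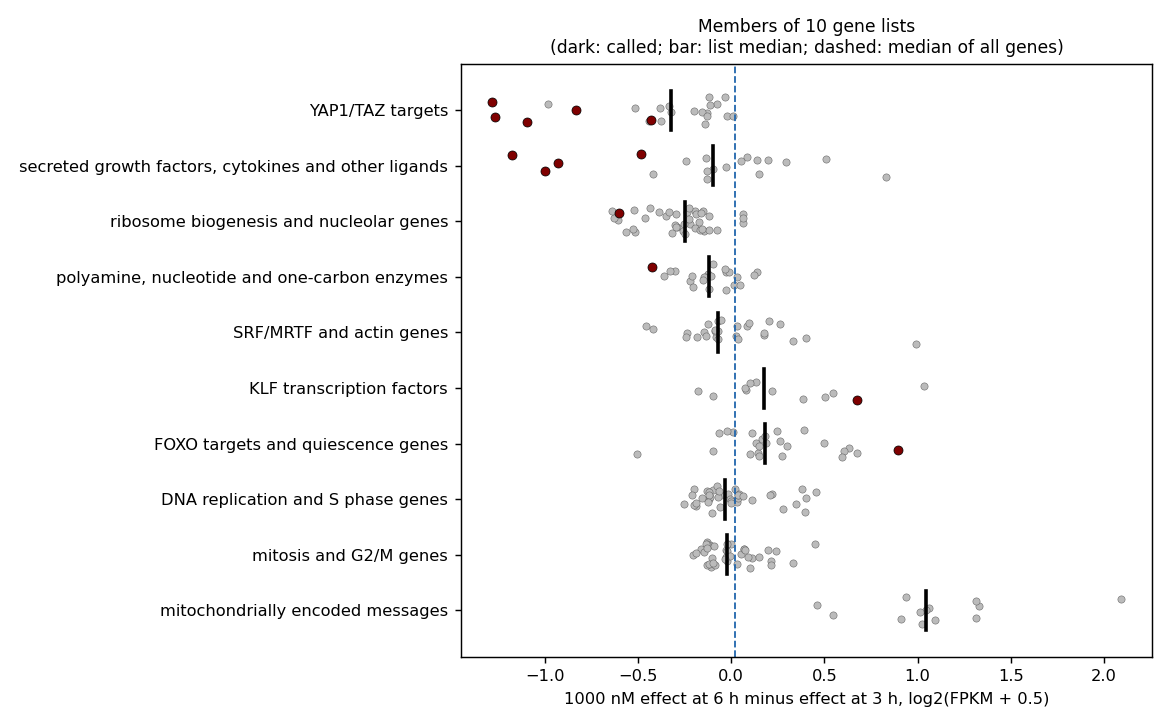
Interaction at 1000 nM, in log2(FPKM + 0.5), of each tested member of 10 gene lists; dark points were called, the bar is the list median and the dashed line is the median of all genes (0.02). Called members lie at the low end for YAP1/TAZ targets and ligands and at the high end for KLF7 and BMF, and the mitochondrial messages, of which 0 were called, centre on 1.04.

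BTG1, FAM46C and TSC22D1 were called higher at 3 h and had no called interaction. BTG1, an antiproliferative gene, was at 0.48 at 3 h and 0.42 at 6 h, and its interaction was -0.06 ± 0.12 (adjusted p = 0.958). FAM46C, a poly(A) polymerase, was at 0.48 and 0.52 (interaction 0.04 ± 0.13, adjusted p = 0.973), and TSC22D1, a leucine zipper gene, at 0.22 and 0.38 (0.15 ± 0.06, adjusted p = 0.626). Over all libraries no member was called among the 7 BTG/TOB and FAM46 genes, 27 SRF/MRTF and actin genes, 14 immediate early and AP-1 genes, 20 NF-kB targets, 23 interferon-stimulated genes, 19 NRF2 and aryl hydrocarbon receptor targets, 19 unfolded protein and ATF4 response genes, 26 mevalonate and cholesterol genes and 11 protein prenylation enzymes. Their medians lay between -0.07 and 0.16. With 0.227% of all genes called, a count of 0 does not set lists of this size apart. The immediate early median of 0.16 became -0.16 with type terms and -0.08 within the first type, with 1 member called lower in each. In both of these fits FHL2, an SRF target (-0.46 over all libraries), and NFKB1, an NF-kB subunit (-0.44), were called lower, and 3 NRF2 and aryl hydrocarbon receptor targets were called higher, among them CYP1B1 (0.38) and AKR1C2 (0.41). Within the first type 1 unfolded protein and ATF4 response gene was also called lower. Over all genes, 0.517% were called lower and 0.12% higher with type terms, and 1.06% and 0.284% within the first type.

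The 13 mitochondrially encoded messages had the highest list median, 1.04, with 0 called and every value above 0. MT-CO3, a cytochrome c oxidase subunit, measured 4270, 4896 and 4360 FPKM in DMSO 3 h replicates 1, 2 and 3, and 1817, 1923 and 1535 FPKM in the other 3 DMSO libraries of that time. These first 3 are the libraries of the third type. Treated libraries held 1965, 1429 and 1973 FPKM at 3 h and 2891, 3076 and 2371 FPKM at 6 h, against 1997 to 2350 FPKM in DMSO at 6 h. Without the third type the list median was 0.21, with type terms 0.26 and within the first type 0.28. For the YAP1/TAZ targets it was -0.32 over all libraries and -0.33 without the third type, and for the ribosome biogenesis genes it was -0.25 and -0.27.

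The same contrast at lower doses used other treated libraries but the same DMSO libraries, so the values are only set side by side. At 300 nM 31 genes were called (0.195%; 1 higher, 0.0063%, and 30 lower, 0.189%), and at 100 nM 9 were (0.0567%; 1 higher, 0.0063%, and 8 lower, 0.0504%). The 30 genes called lower at 1000 nM had median interactions of -0.61, -0.58 and -0.49 at 1000, 300 and 100 nM, and the 6 called higher had medians of 0.66, 0.52 and 0.47. Because these genes were picked at 1000 nM, larger values at that dose can arise from the choice alone. CTGF was at -1.27, -1.15 and -0.83, CYR61 at -1.09, -1.07 and -0.66, and DKK1 at -1.18, -1.08 and -0.86. FST was lowest at 300 nM (-0.93, -1.09 and -0.71), OXTR was lowest at 1000 nM (-1.21, -0.55 and -0.62), and RHOB was at 1.41, 0.85 and 0.74.

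With limma, the difference of the interaction between doses was called for 0 genes, both for 1000 minus 100 nM and for 1000 minus 300 nM. Of 15866 genes, 224 and 569 had an unadjusted p under 0.05, both fewer than the 1 in 20 that chance gives. Voom on the recovered reads called 0 for 1000 minus 100 nM. The gap of 1000 minus 100 nM was -0.44 ± 0.11 for CTGF, -0.44 ± 0.12 for CYR61, -0.53 ± 0.19 for ANKRD1 and 0.67 ± 0.30 for RHOB (each with an adjusted p of 1). Of the 36 genes, 10 had an unadjusted p under 0.05 for 1000 minus 100 nM and 3 for 1000 minus 300 nM. The 36 were picked by their interaction at 1000 nM, and the same treated libraries enter both differences. No conclusion is therefore drawn from these counts. A p that misses the threshold does not show that the doses act alike.

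**Figure D5:**
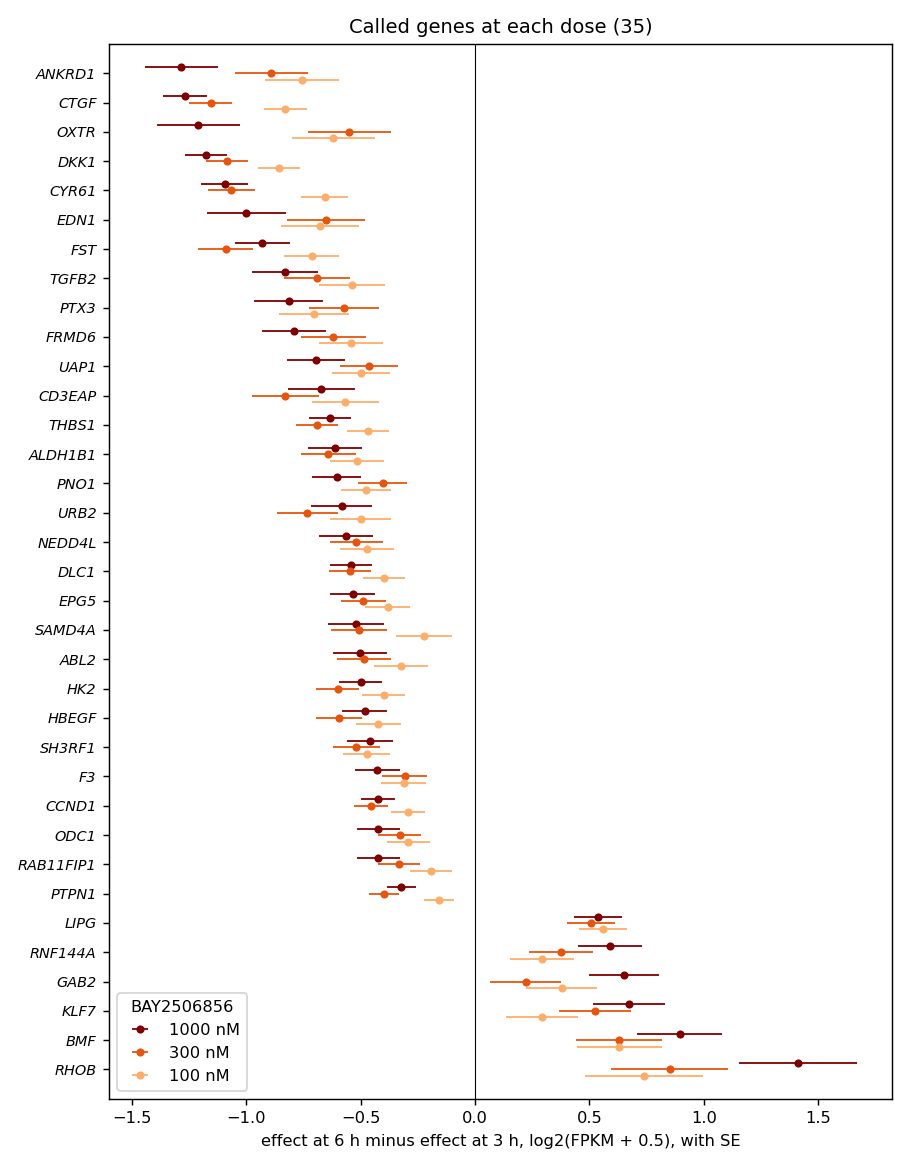
Interaction of 35 of the 36 genes at 1000, 300 and 100 nM, in log2(FPKM + 0.5), with the SE of the fit. The points of a gene share their DMSO libraries, and the genes were picked by their value at 1000 nM. CTGF lies at -1.27, -1.15 and -0.83 and RHOB at 1.41, 0.85 and 0.74.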

How the data were processed

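Gene expression was measured by poly(A) RNA sequencing with single reads (TruSeq Stranded mRNA, per the labels' protocols). The submitters' processing notes name STAR 2.4.2a, featureCounts 1.4.6-p2, Subread, DESeq2 and hg19. The deposited table gives log2(FPKM + 1) for 38342 genes in 60 libraries. It had been assumed to hold FPKM, so the deposited log2 values were converted back to FPKM. Whole reads were recovered from all 1304094 values above 0 within 0.01 read, which gave each library's depth. Reads carry no molecular identifiers.

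The 15866 genes that reached 1 FPKM in 3 or more libraries entered a limma 3.58.1 model (R 4.3.3) of log2(FPKM + 0.5). All 60 libraries were used, each group having its own mean (44 residual degrees of freedom), with a mean trend and robust moderation. A gene was called at a Benjamini-Hochberg adjusted p under 0.05. Folds are on the log2(FPKM + 0.5) scale and understate changes of low genes. The fit was run on simulated data with independent noise in each gene and library. That check held no library types and does not speak to them. No replicate pair differed by as little as sampling noise. Named genes were the 12 highest and 12 lowest called interactions, the members of each list with the smallest p (3 at most), and a short set always named. The other called genes were named after their values were seen. Members and lists were chosen with earlier results of these data known. Alternatives changed the pseudocount, filter, scaling, weights, libraries, library type terms, GC trends and the model (voom on recovered reads). The values of 1 called gene and of 2 gene lists are not reported here.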

Additional observations from a re-analysis of the deposited data

Results flagged for a closer look

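The effect of 1000 nM differed between 3 h and 6 h for 36 genes by the limma interaction test. Among 70 combinations of a called gene and a DMSO group, 4 held a library far from the other 5, with a gap above 0.625 of the group's range. Chance gives about 1 in 20 such cases. In DMSO at 6 h, replicate 5 stood apart for FST (16.55 FPKM against 14.39 to 14.91, ratio 0.759), DLC1 (9.097 FPKM against 7.941 to 8.271, ratio 0.715) and F3 (179 FPKM against 144.8 to 153.6, ratio 0.743). In DMSO at 3 h, replicate 6 stood apart for NEDD4L (10.63 FPKM against 8.729 to 9.335, ratio 0.681). Both libraries are of the second type, whose part in these values was not tested.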

How the results depend on the processing

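All 36 genes kept their direction in each of 16 alternative settings and in 18 fits that each left out 1 library. Of 25 list medians 14 changed sign in at least 1 setting or fit, among them the immediate early list, and of 66 named genes that were not called 8 did. Of the 36, 20 were called in all 18 of those fits, and the count of called genes ranged from 21 to 48 (18 to 40 lower, 2 to 11 higher). It was 21 without 1000 nM 6 h replicate 1. With only the 18 libraries fitted, 22 genes were called, 1 of them higher. That fit ended the calls of 15 of the 36 genes (adjusted p = 0.0544 to 0.579): OXTR, ALDH1B1, URB2, EPG5, SAMD4A, F3, CCND1, ODC1, RAB11FIP1, PTPN1, LIPG, RNF144A, GAB2, KLF7 and BMF. The other shifts in counts are given by setting, at 1000 nM (lower and higher), 300 nM and 100 nM. Library type terms gave 101 (82 and 19), 101 and 32. The first library type alone gave 213 (168 and 45), 170 and 53. Taking out GC trends gave 140 (102 and 38), 121 and 58, and with type terms 194 (135 and 59), 165 and 60; GC content was known for 83.7% of genes tested. Array weights, whose estimate did not converge, gave 3143 (1530 and 1613), 1459 and 2139, and 112 genes for the difference of 1000 minus 100 nM. Array weights with type terms gave 458 (307 and 151), 436 and 198, and 8 for that difference. Without the third type 47 were called at 300 nM. Without libraries under 2 M reads 61 were called at 300 nM and 19 at 100 nM, and voom called 20 at 100 nM. Without the third type and libraries under 2 M reads, a setting chosen after seeing the data, the counts were 61 (53 lower), 111 and 21. The cause of these shifts was not tested. No paired analysis was possible because the groups share no replicate numbers in the labels.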
